A study of Mus musculus with 48 samples.

Results

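The Janus kinases (JAKs) and the signal transducers and activators of transcription (STATs) were followed in mouse skin through 9 genes: the kinases Jak1, Jak2, Jak3 and Tyk2 and the factors Stat2, Stat3, Stat5a, Stat5b and Stat6. Each gene was read from the probe set of highest mean among those whose annotation names that gene alone, out of 18194 genes with such a probe set on the array. The 9 genes had 20 such probe sets in all, and the others served as a check. Of the 9 genes, 8 passed the filter on low values and were tested with 13648 genes. Jak3 did not pass, and its values are given without a call. The series concerns preventing alopecia areata, an autoimmune hair loss, by blocking interleukin-15 signalling. In this model the disease is known to be passed to healthy C3H/HeJ mice by grafting skin of affected animals.

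All 48 arrays measured total RNA of skin of the C3H/HeJ strain, and 47 of them were placed in 13 groups. Weeks are weeks of treatment as the sample titles give them. The treatment-time label pools weeks 5 and 6, and pools week 13 with the week before it. At week 5 the groups were sham (n = 4), phosphate-buffered saline (PBS) given intraperitoneally (PBS ip, n = 4) and il15rb (n = 3). At week 6 they were PBS pump (n = 3), jak3i (n = 5), PBS gavage (n = 5) and jak12i (n = 5). At week 13 PBS ip, il15rb, PBS pump, jak3i, PBS gavage and jak12i had 3 arrays each. Of the agents, il15rb is known of the study as an antibody against the beta chain of the interleukin-15 receptor. The other agents are known of it as tofacitinib (jak3i) and ruxolitinib (jak12i), small molecules that inhibit JAK enzymes. The labels state no dose, no age, no sex and no pairing of agent with route. PBS ip was taken as the vehicle of il15rb, PBS pump of jak3i and PBS gavage of jak12i from what is known of the study. The labels do not say what the sham mice underwent, and 1 further week 5 array whose title and treatment label disagree was left out.

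JAKs are tyrosine kinases bound to the inner ends of cytokine receptors. A cytokine brings the receptor chains and their JAKs together, and the kinases then phosphorylate STATs, which pair, enter the nucleus and bind DNA. Interleukin-2 and interleukin-15 signal through JAK1 and JAK3 to STAT5, interferon gamma signals through JAK1 and JAK2, and type I interferons signal through JAK1 and TYK2 to a complex that holds STAT2 and IRF9. In alopecia areata cytotoxic T cells surround the growing hair follicle, and both interferon gamma and interleukin-15 are known parts of the disease. A JAK inhibitor blocks the enzyme, not the transcript, so the arrays measured the amount of each messenger RNA and not the kinase activity.

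The clearest pattern among the 9 genes was in Stat2, the STAT of the type I interferon pathway. Its messenger was at low signal in all groups at weeks 5 and 6, was high in the 3 vehicle groups at week 13, and was lower in all 3 treated groups at that time. The week 13 difference from vehicle was a 2.19-fold fall under il15rb, a 4.63-fold fall under jak3i and a 3.75-fold fall under jak12i. The kinases moved less. At week 6 Jak1, Jak2 and Tyk2 fell with Stat3 and Stat6 in jak12i skin, by 1.25-fold to 1.35-fold against PBS gavage. Against PBS pump Stat3 alone kept its call there and Jak2 and Stat6 turned sign, and with second probe sets Jak2 alone kept it. Stat5b was the only member that rose under a treatment at week 13, by 1.42-fold under il15rb, and its second probe set had the opposite sign. On the GRCm38.p6 assembly Jak1 lies at chr4:101151974-101265282, Jak2 at chr19:29251803-29313095, Jak3 at chr8:71676383-71690577, Tyk2 at chr9:21104068-21131393, Stat2 at chr10:128270498-128292853 and Stat6 at chr10:127642955-127660987.

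**Figure D1:**
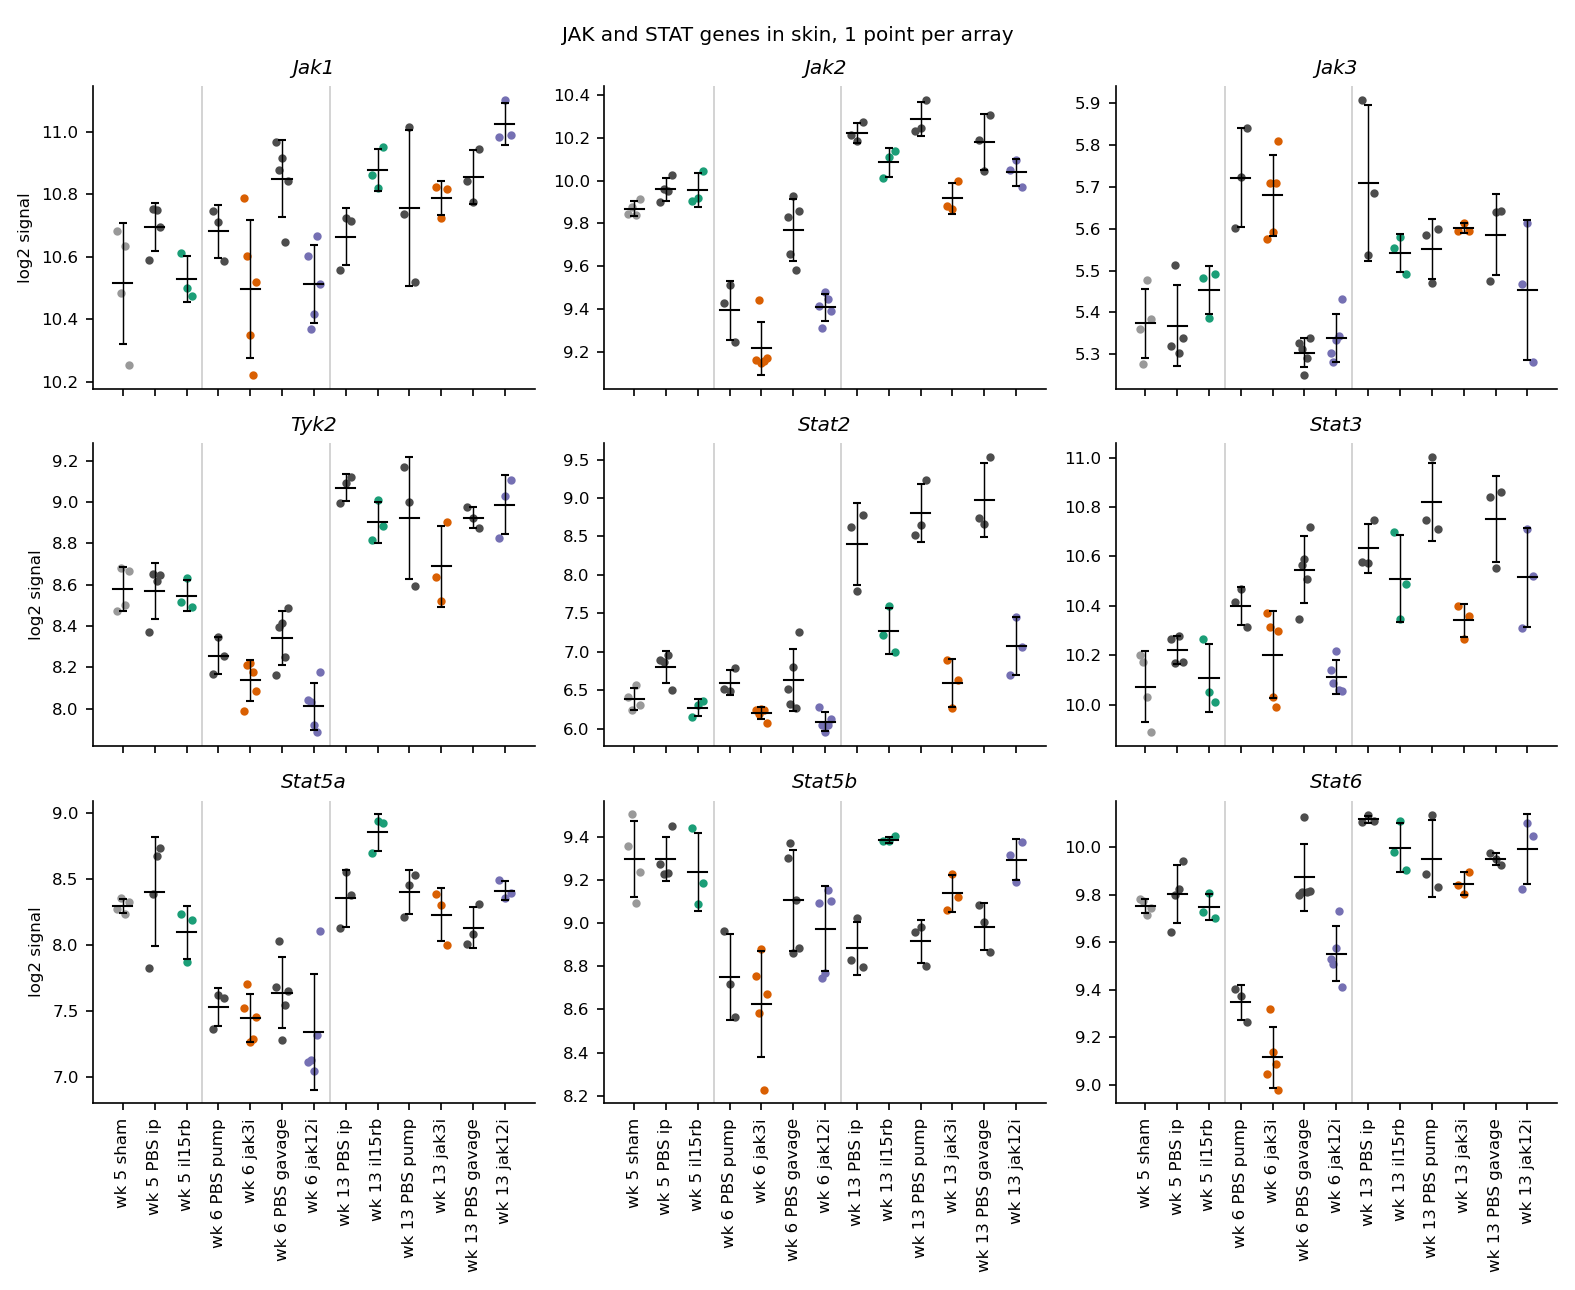
Log2 signal (vertical axis) of the 9 JAK and STAT genes in each of 47 skin arrays, grouped by title week and treatment along the horizontal axis. Each point is 1 array, black bars are the group mean and SD, grey points are sham or PBS, and green, orange and purple points are il15rb, jak3i and jak12i. Stat2 reached 7.79 to 9.53 in the week 13 PBS arrays and at most 7.59 in every other array.

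Values are deposited log2 signals, and a difference of 1 is a doubling. The table median was 6.70, and a gene was tested when its probe set lay above that median in at least 3 arrays. Every difference is on the log2 scale and carries its SE (standard error) from a limma fit with 1 mean per group over the 47 arrays, while group levels are mean ± SD. A gene is called where the limma p, adjusted by Benjamini-Hochberg over all genes tested, lies below 0.05. Levels of different genes come from different probes and were not compared. Arrays of different weeks also differed in overall signal. The 75th percentile of signal was 8.47 to 8.68 at week 5, 8.15 to 8.35 at week 6 and 8.68 to 8.78 at week 13. No label names a batch, so batch and time on treatment cannot be told apart between weeks. All treatment comparisons were made within a week. Within week 6 the arrays also split by route. Array medians were 6.74 to 6.77 in PBS pump and 6.74 to 6.78 in jak3i skin. They were 6.69 to 6.71 in both PBS gavage and jak12i skin. The part of this split in values set against the vehicle of the other route was not tested. The epidermal keratinocyte lists were high on every array, with list means of 12.2 to 12.9 for basal and 12.4 to 13.3 for differentiating epidermis. Single arrays stood apart in other tissue. The mean over 10 skeletal muscle genes was below 8 in PBS gavage replicate 5 of week 6, PBS ip replicate 3 of week 13 and PBS pump replicate 2 of week 13. Among week 5 and week 6 arrays, the hair shaft mean was above 9 in sham replicate 4 of week 5 and in jak12i replicates 2 and 3 of week 6. The values of the members called in treatment comparisons that hold these arrays are given below without them too.

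At week 5 none of the 8 tested members was called in il15rb against PBS ip by limma, and 1 had an unadjusted p under 0.05. Of all genes, 0.0733% were called. The median member difference was -0.09, against 0.0062 over all genes, and all members but Stat2 lay between -0.31 and -0.0031. At week 6 none of the 8 was called in jak3i against PBS pump either, where 4.1% of genes were called, 3.64% lower, and 2 members had an unadjusted p under 0.05. All 8 differences lay below 0 there, with a median of -0.18 against -0.0013 over all genes. Against PBS gavage, 5 of 8 members fell in jak12i skin of week 6 and none rose, where 8.1% of all genes fell and 1.49% rose, and the median member difference was -0.33 against -0.0308. Treated and vehicle arrays were fully apart for 3 of the 8, as for 8.1% of genes. The split of all called genes depended on scaling. In jak12i skin of week 6, 15.5% of called genes were higher as deposited and 42.5% after quantile normalization between arrays. In jak3i skin of week 6 the same shares were 11.1% and 31.5%. Of cytotoxic lymphocyte genes 3 of 8 fell in jak12i and 1 of 8 in jak3i skin of week 6, and the part of those cells in the member values was not tested.

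In each week 13 comparison more genes were called than at the earlier week of the same agent. In il15rb skin 2 of 8 members were called, 1 in each direction, where 25.7% of genes were called, 15.1% higher and 10.6% lower. In jak3i skin 3 of 8 members fell and none rose, where 16.0% of genes were called, 9.67% higher and 6.32% lower. In jak12i skin 1 of 8 was called, where 21.9% of genes were called, 11.6% higher and 10.3% lower. The medians over the members were -0.12, -0.20 and 0.0517, against 0.0079, 0.0269 and 0.0196 over all genes. Stat2 was the member called in all 3 of these comparisons. Treated and vehicle arrays were fully apart for 5, 4 and 4 of the 8 members, against 36.8%, 29.7% and 37.0% of all genes.

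**Figure D2:**
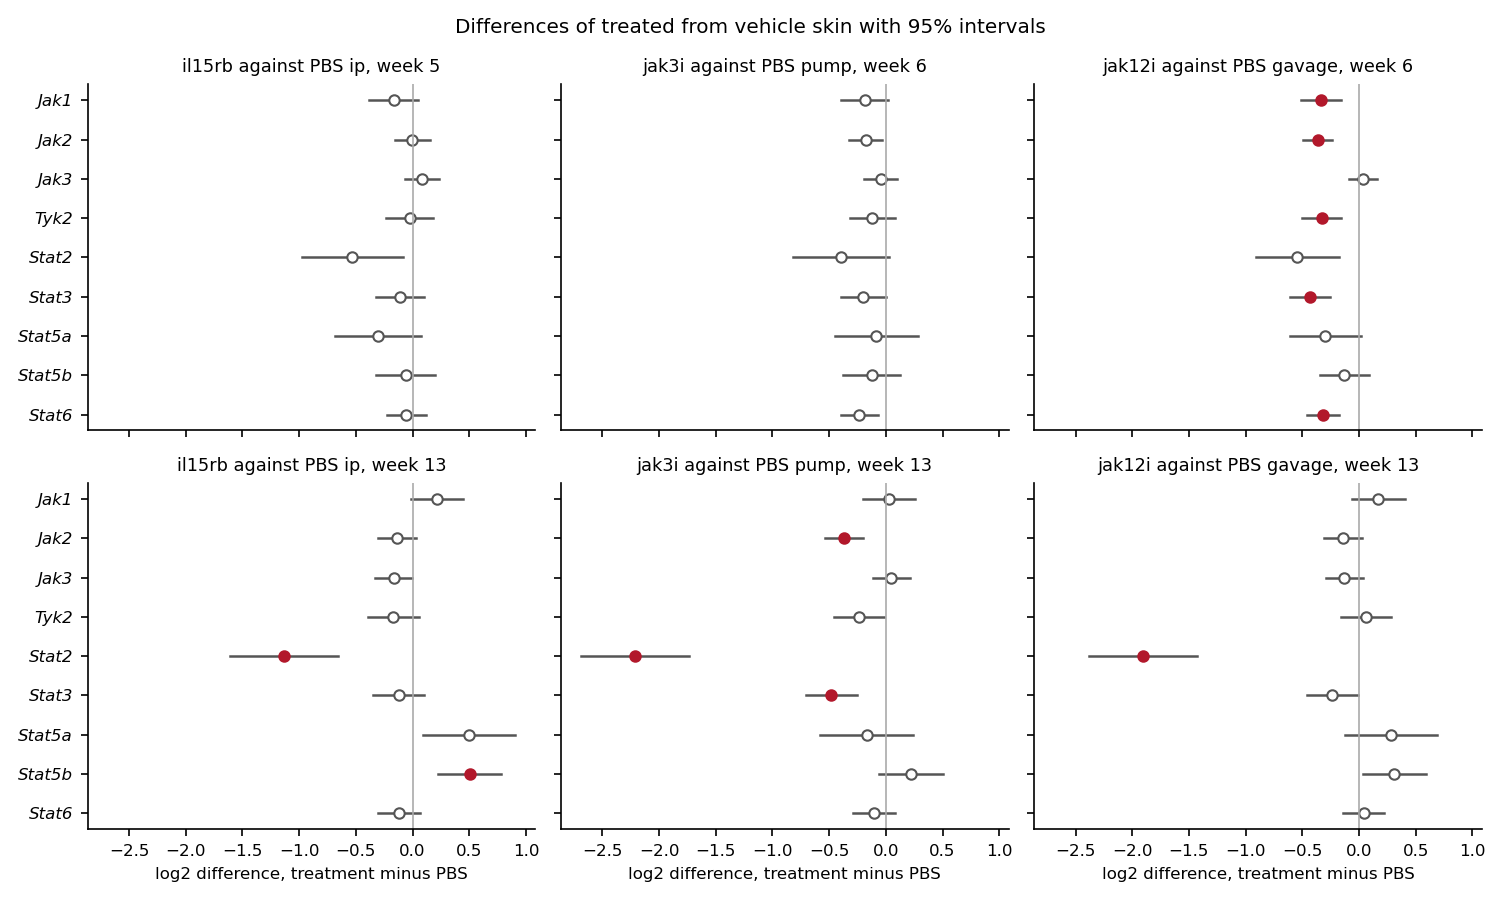
Log2 difference between treated and vehicle skin (horizontal axis, treatment minus PBS of its route) for each of the 9 genes in the 6 treatment comparisons, with 95% intervals from limma. Red points are called and open points are not, Jak3 being shown from the fit without a filter. Stat2 is farthest to the left in all 3 week 13 panels, at -1.13, -2.21 and -1.91, while 5 members are red at week 6 under jak12i.

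Among the kinases, Jak2, which serves interferon gamma, growth hormone and leptin receptors, was called in 2 of the 6 treatment comparisons. The 3 PBS pump arrays of week 13 read 10.23, 10.25 and 10.38 and the 3 jak3i arrays 9.88, 9.87 and 10.001, with no overlap. Jak2 fell there by 0.37 ± 0.08 (limma adjusted p = 0.00158), and its second probe set fell by 0.37 ± 0.10. Without PBS pump replicate 2, low in muscle, the first differed by -0.39. With only these 2 groups in the fit the adjusted p of the first was 0.079, the highest of 15 alternatives whose lowest was 0.000181. At week 6 Jak2 read 9.83, 9.66, 9.93, 9.58 and 9.86 in PBS gavage skin and 9.41, 9.31, 9.48, 9.44 and 9.39 in jak12i skin, again with no overlap. The difference was -0.36 ± 0.06 (limma adjusted p = 0.000223), and -0.33 ± 0.07 by the second probe set. It was -0.35 without the arrays high in hair shaft and -0.34 without the one low in muscle, called in both. The 3 PBS pump arrays of that week, at 9.43, 9.51 and 9.24, lay with the jak12i arrays, and against them the jak12i difference was 0.0135, with an adjusted p of 0.913 where the 20 alternatives began at 4.7e-05. The sign of the jak12i difference in Jak2 therefore turned with the vehicle used. Changing the vehicle also crossed the split in overall signal between routes given above, whose part was not tested. In jak3i skin of week 6 Jak2 was 0.18 ± 0.07 below PBS pump and was not called (limma adjusted p = 0.188). Replicate 2, at 9.44, lay above the other 4 jak3i arrays, at 9.15 to 9.17. Without it the difference was -0.24 and called (limma adjusted p = 0.0418), as was Stat6 at -0.28 (limma adjusted p = 0.0296).

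Jak1, the kinase shared by the interferon, interleukin-2 and interleukin-6 receptor families, read 10.97, 10.88, 10.92, 10.65 and 10.84 in PBS gavage skin of week 6. It read 10.60, 10.37, 10.42, 10.67 and 10.51 in jak12i skin, where the highest array lay above the lowest vehicle array. Jak1 fell by 0.34 ± 0.09 (limma adjusted p = 0.0116), and the difference was -0.34 without the array low in muscle. The call was lost with the second probe set (-0.15), against PBS pump (-0.17) and without jak12i replicates 2 and 3, the arrays high in hair shaft (-0.26), with a highest adjusted p of 0.295 and a lowest of 0.00519 over 20 alternatives. In jak3i skin of week 6 Jak1 differed by -0.19 ± 0.10 and was not called. At week 13 its differences were 0.21 ± 0.11 under il15rb, 0.03 ± 0.11 under jak3i and 0.17 ± 0.11 under jak12i, none called. The jak12i difference of week 13 minus that of week 6 was 0.51 ± 0.14 (limma adjusted p = 0.0136), where 16.1% of genes differed in that contrast. That difference was no longer called with the second probe set (0.14) or without the week 6 arrays high in hair shaft, with adjusted p of 0.00801 to 0.558 over 24 alternatives.

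The third Jak1 probe set, 1433804_at, gave a much larger difference and was singled out after its values were seen. In jak12i skin of week 6 it read 7.86, 7.32, 7.55, 7.24 and 6.27, and in PBS gavage skin 9.46, 9.08, 9.57, 8.49 and 9.36. Every jak12i array lay below every other array of that week, since PBS pump read 9.82, 9.87 and 9.54 and jak3i 9.71, 9.44, 8.72, 8.11 and 8.58. In a limma fit over 27200 single probe sets the fall was 1.94 ± 0.23 (adjusted p = 2.65e-07). At week 13 the same probe set read 9.77, 9.82 and 9.59 under jak12i and 9.68, 9.62 and 9.90 in PBS gavage skin, a difference of -0.0031 ± 0.29. The change in the jak12i effect between the weeks was 1.94 ± 0.37 (limma adjusted p = 0.000616). In jak3i skin of week 6 it was 0.83 ± 0.26 below PBS pump and was not called (limma adjusted p = 0.0802). The jak12i effect at week 6 was 1.11 ± 0.35 lower than the jak3i effect, which was not called either (limma adjusted p = 0.0709). All 3 Jak1 probe sets were designed from 1 sequence record, per the platform annotation, so probe sets of the same gene disagree in size. Over the 47 arrays, centred by week, the third correlated with the first at r = 0.51 and the second with the first at r = 0.60. Which part of the transcript each probe set reads was not analysed here.

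**Figure D3:**
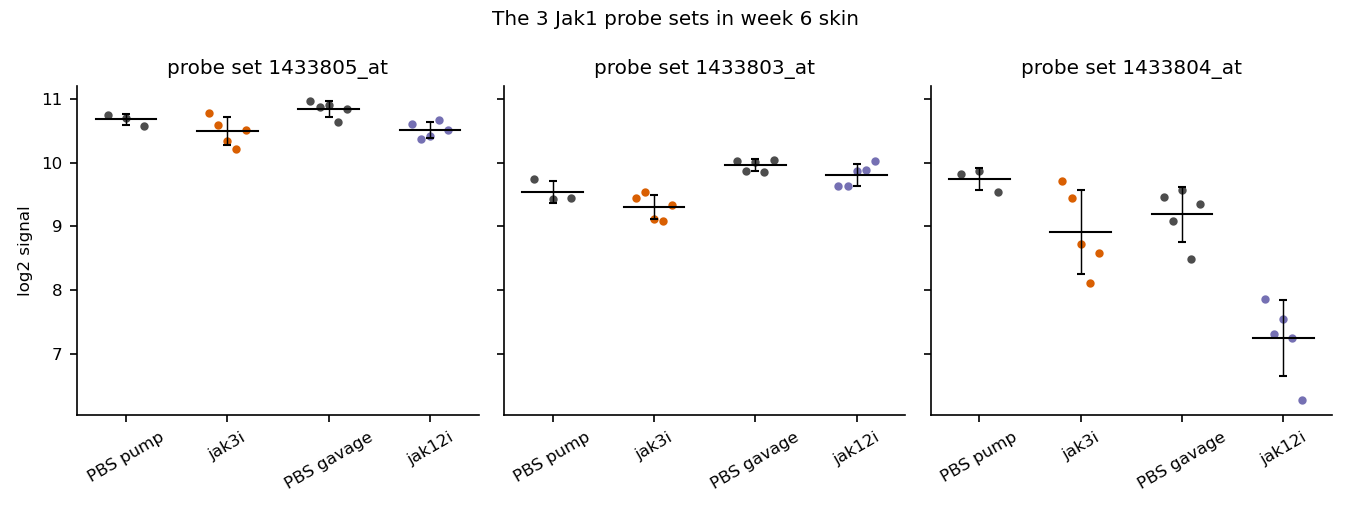
Log2 signal (vertical axis) of the 3 Jak1 probe sets in the 18 arrays of week 6, grouped by treatment along the horizontal axis; points are arrays and black bars the group mean and SD. The jak12i arrays of probe set 1433804_at lie at 6.27 to 7.86, below all other arrays of the week, while in the other panels the jak12i mean is 0.34 and 0.15 below the PBS gavage mean.

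Tyk2, the kinase of type I interferon and interleukin-12 receptors, read 8.16, 8.39, 8.41, 8.25 and 8.49 in PBS gavage skin of week 6 and 8.04, 8.03, 7.92, 7.89 and 8.18 in jak12i skin. The groups overlapped by 1 array on each side, and Tyk2 fell by 0.33 ± 0.08 (limma adjusted p = 0.0103), with a difference of -0.29 without the array low in muscle. The call was lost after quantile normalization, with the second probe set (-0.09), against PBS pump (-0.24) and without the 2 jak12i arrays high in hair shaft (-0.31), with adjusted p from 0.00566 to 0.667 over 20 alternatives. The 2 Tyk2 probe sets did not track each other, with r = 0.02 over the 47 arrays after the mean of each week was removed. At week 13 Tyk2 differed by -0.17 ± 0.11, -0.23 ± 0.11 and 0.06 ± 0.11 under il15rb, jak3i and jak12i, none called. PBS pump replicate 3 read 8.596 where the other arrays of that group read 9.17 and 9.001. Without it the jak3i difference was -0.40 and called (limma adjusted p = 0.013).

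Jak3, the kinase of the common gamma chain that serves interleukin-2 and interleukin-15, is known to be expressed mainly in lymphoid cells. Its probe set lay below the table median in all 47 arrays, between 5.25 and 5.91. The week 13 levels were 5.91, 5.54 and 5.68 in PBS ip skin, 5.55, 5.58 and 5.49 in il15rb skin, 5.59, 5.47 and 5.60 in PBS pump skin, 5.60, 5.61 and 5.59 in jak3i skin, 5.47, 5.64 and 5.64 in PBS gavage skin, and 5.47, 5.61 and 5.28 in jak12i skin. Without a filter its differences in the 6 treatment comparisons lay between -0.17 and 0.08, and no call was made. At week 6 it read 5.25 to 5.34 in PBS gavage skin and 5.60 to 5.84 in PBS pump skin, where the 25th percentile of all signals was 5.46 to 5.48 and 5.54 to 5.59.

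Stat2 is, with IRF9, part of the complex that binds interferon-stimulated response elements. The RefSeq promoter window of Stat2 (GRCm38.p6, chr10:128270248-128270547, plus strand) runs from 250 bases before to 50 bases after the start and is shown with that of Stat3 (chr11:100939491-100939790, minus strand), the STAT of interleukin-6 receptors. They are printed because these were the STATs called in more than 1 treatment comparison, Stat2 with larger differences than Stat3. Capitals mark matches to 3 motifs searched on both strands. The first, GAAA and GAAA with any 2 bases between, is the core of an interferon-stimulated response element. The other two are TTC and GAA with any 3 bases between, the core of a gamma-activated site, and with any 4 bases between, the core of a STAT6 site.
Stat2: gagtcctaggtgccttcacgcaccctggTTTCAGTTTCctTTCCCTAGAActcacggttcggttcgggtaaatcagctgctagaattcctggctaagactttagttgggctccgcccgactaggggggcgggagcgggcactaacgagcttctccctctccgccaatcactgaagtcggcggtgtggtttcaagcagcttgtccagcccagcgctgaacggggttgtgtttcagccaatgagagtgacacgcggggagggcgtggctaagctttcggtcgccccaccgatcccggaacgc
Stat3: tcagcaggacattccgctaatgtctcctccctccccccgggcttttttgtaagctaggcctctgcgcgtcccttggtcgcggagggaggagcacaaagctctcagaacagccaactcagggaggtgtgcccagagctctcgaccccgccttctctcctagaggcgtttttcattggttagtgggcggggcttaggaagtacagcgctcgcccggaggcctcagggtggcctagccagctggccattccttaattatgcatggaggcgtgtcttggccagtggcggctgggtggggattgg
The Stat2 window held TTTCAGTTTC, a match to the first motif on the opposite strand starting 222 bases before the start, and TTCCCTAGAA, a match to the STAT6 core starting 210 bases before it. The matches do not overlap each other. Of 32851 RefSeq mouse promoter windows of 300 bases, 3.44% held the first motif, 8.3% the gamma-activated core and 6.95% the STAT6 core. The 9 genes had 11 windows, and 1 of them held a match. A match is a run of letters and not a measured site.

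Stat2 lay above the table median in 3 of 11 arrays at week 5, 3 of 18 at week 6 and 16 of 18 at week 13. At week 5 it read 6.89, 6.87, 6.96 and 6.498 in PBS ip skin, 6.15, 6.31 and 6.36 in il15rb skin, and 6.41, 6.24, 6.57 and 6.31 in sham skin. The il15rb and PBS ip arrays did not overlap, which held for 1 of 8 members and 7.88% of all genes. The difference of -0.53 ± 0.22 was not called (limma adjusted p = 1.0). PBS ip was 0.42 ± 0.20 above sham, which was not called either (limma adjusted p = 0.962). No member was called in that comparison, where 0.0293% of genes were called (0.022% higher) and 1 member had an unadjusted p under 0.05. No member's arrays were fully apart there, against 4.2% of genes. Between il15rb and sham no member was called by limma or had an unadjusted p under 0.05, where 0.0147% of genes were higher and 0.0147% lower. At week 6 the arrays read 6.52, 6.49 and 6.78 in PBS pump skin and 6.24, 6.19, 6.26, 6.24 and 6.07 in jak3i skin, a difference of -0.40 ± 0.21 with no overlap and no call. That was the 1 member of 8 without overlap there, where 9.12% of genes had none. PBS gavage read 6.51, 6.32, 6.80, 6.27 and 7.26 and jak12i 6.28, 6.04, 5.95, 6.05 and 6.12. That difference was -0.54 ± 0.18 (limma adjusted p = 0.0514), just outside the threshold. It was called without PBS gavage replicate 2 (-0.62) and without replicate 4 (-0.63), and was -0.39 and not called without replicate 5, the array at 7.26, with adjusted p of 0.0342, 0.0275 and 0.202. By the second Stat2 probe set it was -0.07. The first probe set was called after quantile normalization (-0.62, limma adjusted p = 0.0346) and against PBS of all routes (-0.53, limma adjusted p = 0.0298). It was not called against PBS pump (-0.51), after median centring (-0.54), or without the arrays high in hair shaft (-0.48). Nor was it called without the filter, with the replicate block or with only these groups in the fit.

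At week 13 the vehicle arrays lay apart from the treated ones. Stat2 read 8.62, 7.79 and 8.78 in PBS ip skin and 7.21, 7.59 and 7.001 in il15rb skin. It read 8.52, 8.65 and 9.24 in PBS pump skin and 6.89, 6.27 and 6.63 in jak3i skin. It read 8.74, 8.67 and 9.53 in PBS gavage skin and 6.70, 7.45 and 7.06 in jak12i skin. No treated array reached any vehicle array of the same week. Group means from high to low were 8.98 ± 0.48 in PBS gavage, 8.81 ± 0.38 in PBS pump, 8.40 ± 0.53 in PBS ip, 7.27 ± 0.30 in il15rb, 7.07 ± 0.38 in jak12i and 6.60 ± 0.31 in jak3i. Of these neighbours, PBS gavage and PBS pump, il15rb and jak12i did not differ by more than the pooled SD of 0.30. That SD pools all 13 groups, and the SDs of week 13 alone ran from 0.30 to 0.53. At weeks 5 and 6 all SDs but that of PBS gavage (0.41) were below 0.30. The SE of each Stat2 difference below comes from a fit over the same 13 groups. The jak3i mean of week 13 lay beside the vehicle means of week 6, at 6.63 for PBS gavage and 6.60 for PBS pump. Arrays of those weeks differed in overall signal, however.

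Stat2 fell under il15rb (-1.13 ± 0.23, limma adjusted p = 0.000551), under jak3i (-2.21 ± 0.23, limma adjusted p = 1.31e-08) and under jak12i (-1.91 ± 0.23, limma adjusted p = 5.2e-07), with n = 3 against 3 in each. The second probe set fell in all 3 comparisons, by 0.82, 1.39 and 1.19, and tracked the first at r = 0.86 over 47 arrays with week means removed. The jak3i and jak12i calls held in all 15 and 14 alternatives. With only its 2 groups in the fit, the il15rb call was lost (adjusted p = 0.0708, the highest of 15 alternatives whose lowest was 2.73e-07). Without the arrays low in muscle the il15rb fall was 0.94 and the jak3i fall 2.29, both called. The fall under jak3i was 1.81 ± 0.32 larger at week 13 than at week 6 (limma adjusted p = 0.000329, where 9.2% of genes differed). Under jak12i it was 1.36 ± 0.30 larger (limma adjusted p = 0.00202). For il15rb, week 13 minus week 5 was -0.60 ± 0.32 and was not called (limma adjusted p = 0.23). Without PBS ip replicate 2 of week 13, at 7.79, it was -0.90 and called (limma adjusted p = 0.0395).

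Lymphocyte genes moved with Stat2 at week 13. Of 8 tested cytotoxic lymphocyte genes all 8 fell in each of the 3 comparisons, and of 9 tested T cell genes 8, 7 and 5 fell under il15rb, jak3i and jak12i. The cytotoxic list mean lay at 8.06 to 9.72 in vehicle arrays and at 6.19 to 6.95 in treated arrays of week 13, and the T cell list mean at 7.93 to 8.54 and 6.84 to 7.42. The T cell genes Lck, Cd5 and Trac and the cytotoxic gene Gzmk were not tested. Adipocyte genes were higher, with 5, 3 and 5 of 5 tested rising, as were endothelial genes, with 4, 5 and 5 of 5. Hair shaft genes fell under jak12i, 9 of 10, with list means of 6.11 to 7.03 against 9.18 to 11.06 in PBS gavage arrays. In whole skin, fewer cells of a type and less RNA per cell cannot be told apart, and the part of these cells in the Stat2 values was not tested.

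Stat3, which carries interleukin-6 family and interleukin-10 signals, read 10.35, 10.56, 10.59, 10.51 and 10.72 in PBS gavage skin of week 6. It read 10.14, 10.09, 10.22, 10.06 and 10.06 in jak12i skin, with no overlap, and fell by 0.43 ± 0.09 (limma adjusted p = 0.00101). It was called at -0.46 without the arrays high in hair shaft and at -0.39 without the one low in muscle. By the second probe set the difference was -0.24 and the call was lost (adjusted p = 0.0715, the highest of 20 alternatives whose lowest was 0.000549). Against PBS pump it was -0.29 and called, the only one of the 5 to keep its call with that vehicle. At week 13 it read 10.75, 11.003 and 10.71 in PBS pump skin and 10.40, 10.27 and 10.36 in jak3i skin. Stat3 fell there by 0.48 ± 0.11 (limma adjusted p = 0.00261) and by 0.49 ± 0.11 on the second probe set. Without PBS pump replicate 2 the first differed by -0.39 and was called (limma adjusted p = 0.0226). With only these groups in the fit the adjusted p was 0.0691, the highest of 15 alternatives whose lowest was 0.00117. Under jak12i at week 13 the difference was -0.24 ± 0.11 and not called (limma adjusted p = 0.126). It was called by the second probe set (-0.37), without jak12i replicate 2 (-0.34, adjusted p = 0.044) and without PBS gavage replicate 2 (-0.34, adjusted p = 0.0479), so its side of the threshold rested on 1 array. The second Jak2 probe set was called there too, at -0.32, where the first differed by -0.14 ± 0.08. Under il15rb at week 13 Stat3 differed by -0.12 ± 0.11, and under jak3i at week 6 by -0.20 ± 0.10, neither called.

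Stat5a and Stat5b are near-identical factors that carry interleukin-2, interleukin-15, growth hormone and prolactin signals. They lie next to each other and to Stat3 on chromosome 11, Stat5b at 100780731 to 100859004, Stat5a at 100859351 to 100885169 and Stat3 at 100886806 to 100939594 (GRCm38.p6). At week 13 Stat5b read 8.83, 9.02 and 8.80 in PBS ip skin and 9.38, 9.38 and 9.40 in il15rb skin, with no overlap. It rose by 0.50 ± 0.14 (limma adjusted p = 0.00677), and by 0.46 without PBS ip replicate 3, low in muscle. The second Stat5b probe set, below the table median in all 47 arrays, differed by -0.15 and did not pass, so the direction rests on the first, and the 2 probe sets correlated at r = -0.23 with week means removed. Under jak3i and jak12i the week 13 difference in Stat5b was 0.22 ± 0.14 and 0.31 ± 0.14, neither called, with no overlap of arrays in either. Stat5a read 8.13, 8.56 and 8.38 in PBS ip skin and 8.69, 8.94 and 8.93 in il15rb skin. Its difference of 0.50 ± 0.20 was not called (limma adjusted p = 0.0634), but was called without PBS ip replicate 2 (0.60, limma adjusted p = 0.038). Skeletal muscle genes were higher in il15rb skin, with 9 of 10 rising. Their list mean was 13.1 to 13.5 in il15rb arrays and 7.44 to 12.9 in PBS ip arrays, and their part in the Stat5b rise was not tested.

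The week 13 minus week 5 difference of the il15rb effect was 0.56 ± 0.19 for Stat5b (limma adjusted p = 0.049, where 10.6% of genes differed, 6.58% upward) and 0.80 ± 0.27 for Stat5a (limma adjusted p = 0.0529). The Stat5b call was lost without each of 11 of the 13 arrays, among others PBS ip replicate 1 of week 13 (0.53, adjusted p = 0.117) and il15rb replicate 2 of week 5 (0.49, adjusted p = 0.134). At week 6 Stat5a read 7.11, 7.13, 7.05, 7.32 and 8.11 under jak12i and 7.68, 8.03, 7.28, 7.55 and 7.65 in PBS gavage skin. The difference of -0.30 ± 0.16 was not called (limma adjusted p = 0.225). Without jak12i replicate 5, the array at 8.11, it was -0.49 and called (limma adjusted p = 0.0194). Stat5b at week 6 differed by -0.13 ± 0.11 under jak12i and by -0.13 ± 0.12 under jak3i.

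Stat6, the factor of interleukin-4 and interleukin-13, is on chromosome 10 with Stat2. It read 9.80, 9.81, 10.13, 9.81 and 9.82 in PBS gavage skin of week 6 and 9.53, 9.51, 9.58, 9.73 and 9.41 in jak12i skin, with no overlap. It fell by 0.32 ± 0.07 (limma adjusted p = 0.00266), and was called at -0.32 without the arrays high in hair shaft and at -0.33 without the one low in muscle. The 3 PBS pump arrays read 9.41, 9.37 and 9.26, at or below the lowest jak12i array, and against them the jak12i difference was 0.20, with the sign turned and no call. The call was also lost with the second probe set (-0.14) and against PBS of all routes (-0.06). With only these groups in the fit it was lost too (limma adjusted p = 0.0574). Over the 20 alternatives the adjusted p ran from 0.00111 to 0.596. In jak3i skin of week 6 Stat6 read 9.05, 9.32, 9.14, 9.09 and 8.98, a difference of -0.23 ± 0.08 that was not called (limma adjusted p = 0.102). The second Stat6 probe set gave -0.49 there and was called (limma adjusted p = 0.0484). At week 13 its differences were -0.12 ± 0.09, -0.10 ± 0.09 and 0.04 ± 0.09, none called.

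The vehicle groups of week 6 differed between themselves, which bears on the choice of vehicle in every week 6 value above. PBS gavage skin was higher than PBS pump skin in Jak2 by 0.38 ± 0.07 (limma adjusted p = 0.000106), in Stat6 by 0.52 ± 0.08 (limma adjusted p = 4.79e-06) and in Stat5b by 0.36 ± 0.12 (limma adjusted p = 0.0216). That is 3 of 8 members, where 37.2% of all genes were called, 27.6% higher and 9.6% lower. The arrays of Jak2 and Stat6 were fully apart, as were those of 34.2% of genes. Of the called genes 74.2% were higher in PBS gavage skin as deposited, 57.7% after quantile normalization and 81.8% after centring arrays on their medians, and the median of all genes was 0.0749 as deposited and 0.1244 after centring. Macrophage genes (6 of 10) and mast cell genes (4 of 5) were lower in PBS gavage skin, and their part in the member values was not tested. The Stat5b call was lost after quantile normalization (0.18), with only these groups in the fit, and without PBS pump replicate 2 (0.34), PBS pump replicate 3 (0.26), PBS gavage replicate 1 (0.31) or PBS gavage replicate 2 (0.29). The second probe sets of Stat5b (-0.57) and Stat6 (-0.10) had the opposite sign. At week 13 none of the 8 members differed between PBS gavage and PBS pump by limma, none had an unadjusted p under 0.05, and 0.0513% of genes were called. Taken against PBS gavage, jak3i skin of week 6 had 6 members called, all lower. Taken against PBS pump, jak12i skin of week 6 had 1. The share of all genes called in these crossed comparisons is not given, so the counts do not set the members apart from other genes.

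The jak12i and jak3i effects on the members, each against its own vehicle, were also compared with each other, though their routes differ and the labels give no dose. By limma no member differed between them at week 6, where 2.37% of genes did (0.813% higher), or at week 13, where 0.00733% did, and no member had an unadjusted p under 0.05 in either. For Stat2 at week 13 the difference was 0.30 with a 95% interval of -0.37 to 0.98, and for Jak2 at week 6 it was -0.18 with an interval of -0.38 to 0.011. These intervals do not show that the agents act alike. For jak12i the week 13 effect minus the week 6 effect was 0.39 ± 0.14 in Tyk2 (limma adjusted p = 0.0473). In Stat6 it was 0.36 ± 0.11 (limma adjusted p = 0.0267). In both genes the fall called at week 6 was not called at week 13. The same contrast was called in Jak1 with the same sign and in Stat2 with the opposite sign, as given above. The Tyk2 call was lost in 20 of 24 alternatives, among them leaving out jak12i replicate 3 of week 13 (0.33, adjusted p = 0.14). The Stat6 call was lost in 8 of 24, among them leaving out PBS gavage replicate 3 of week 6 (0.30), jak12i replicate 2 of week 13 (0.31), jak12i replicate 3 of week 13 (0.33) or PBS gavage replicate 3 of week 13 (0.35).

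Other genes of the pathway were taken from a list of 68, of which 58 were tested. The list was chosen with earlier results of these data known, so its shares are descriptions and no test of the pathway. At week 6 jak3i skin had 1 of these higher and 9 lower, and jak12i skin none higher and 6 lower, which is 17.2% and 10.3% of the list, where 4.1% and 9.59% of all genes were called. At week 13 the counts were 11 higher and 9 lower under il15rb, 5 and 14 under jak3i, and 8 and 10 under jak12i, which is 34.5%, 32.8% and 31.0%, where 25.7%, 16.0% and 21.9% of all genes were called. Median differences over the list lay between -0.10 and -0.04 in these 5 comparisons. At week 5 none was called in il15rb against PBS ip.

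Receptor chains of the interleukin-2 and interleukin-4 families were among the falls at week 13. Il2rb, the beta chain that interleukin-2 and interleukin-15 share, fell by 1.55 ± 0.15 under il15rb (limma adjusted p = 4.06e-09), by 1.59 ± 0.15 under jak3i (limma adjusted p = 7.76e-10) and by 1.14 ± 0.15 under jak12i (limma adjusted p = 1.24e-06). Of the 6 tested chains 2, 5 and 3 fell and none rose. Il4ra, the interleukin-4 receptor alpha chain, fell by 0.90 under jak3i and 0.87 under jak12i, and Il21r by 0.44 under il15rb and 0.68 under jak12i. Cytotoxic and T cell genes fell in the same comparisons, as counted above, and their part in these falls was not tested. Among receptors of the gp130 family 3, 2 and 3 of 5 tested rose and none fell. Il31ra, a chain of the itch cytokine interleukin-31, rose by 2.36 ± 0.36, 1.37 ± 0.36 and 1.88 ± 0.36, and Il6st, which encodes gp130 itself, by 0.61, 0.68 and 0.41. Ghr, the growth hormone receptor, rose by 1.36, 0.70 and 0.98, and Il20ra by 1.09, 0.78 and 1.30. The adipocyte list mean lay at 10.61 to 11.85 in treated and 8.93 to 10.46 in vehicle arrays of that week, and its part in these rises was not tested. Of 9 interferon and interleukin-10 family receptors 2, 1 and 2 rose at week 13, among them Ifngr1 under il15rb (0.54) and jak12i (0.50), and none fell. At week 6 Ifnar2 (-0.88), Il10rb (-0.73) and Il10ra (-0.46) fell under jak3i, where 1 of the 9 rose, and Ifngr2 (-0.42) and Ifnar1 (-0.24) fell under jak12i, where none rose and the second Ifngr2 probe set had the opposite sign.

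Irf9, the DNA-binding partner of STAT2, fell in all 5 comparisons of weeks 6 and 13. The falls at week 6 were 0.84 ± 0.18 under jak3i (limma adjusted p = 0.00328) and 0.72 ± 0.15 under jak12i (limma adjusted p = 0.00227). At week 13 they were 0.78 ± 0.20 under il15rb, 1.37 ± 0.20 under jak3i and 0.91 ± 0.20 under jak12i. Socs1, a feedback inhibitor of JAKs, fell at week 13 by 0.63, 1.10 and 0.99 under il15rb, jak3i and jak12i, and Cish (0.83) and Socs3 (0.99) fell under jak3i. Of 7 genes of that family 2 rose and 2 fell under il15rb, Socs7 rising by 0.46, and 3 and 2 fell under jak3i and jak12i with none rising. Of 13 phosphatases, PIAS proteins and adaptors 2 rose and 3 fell under il15rb, and 2 fell under each of jak3i and jak12i with none rising. The rises were Sh2b3 (0.33) and Pias2 (0.47), whose second probe sets had the opposite sign. Ptpn1, which dephosphorylates JAK2 and TYK2, fell by 0.44, 0.52 and 0.56. Ptprc, the pan-leukocyte phosphatase CD45, fell by 1.41 under jak3i and 0.90 under jak12i at week 6, and by 1.07 and 0.63 at week 13. Macrophage genes moved with it in jak3i skin of week 6, with 7 of 10 falling and list means of 8.93 to 9.83 against 10.26 to 11.02 in PBS pump arrays. Their part in the jak3i values was not tested. In the target gene list Pim2 fell by 0.45, 0.43 and 0.50 at week 13, while Pim3 and Bcl6 rose under jak12i by 0.78 and 0.52.

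**Figure D4:**
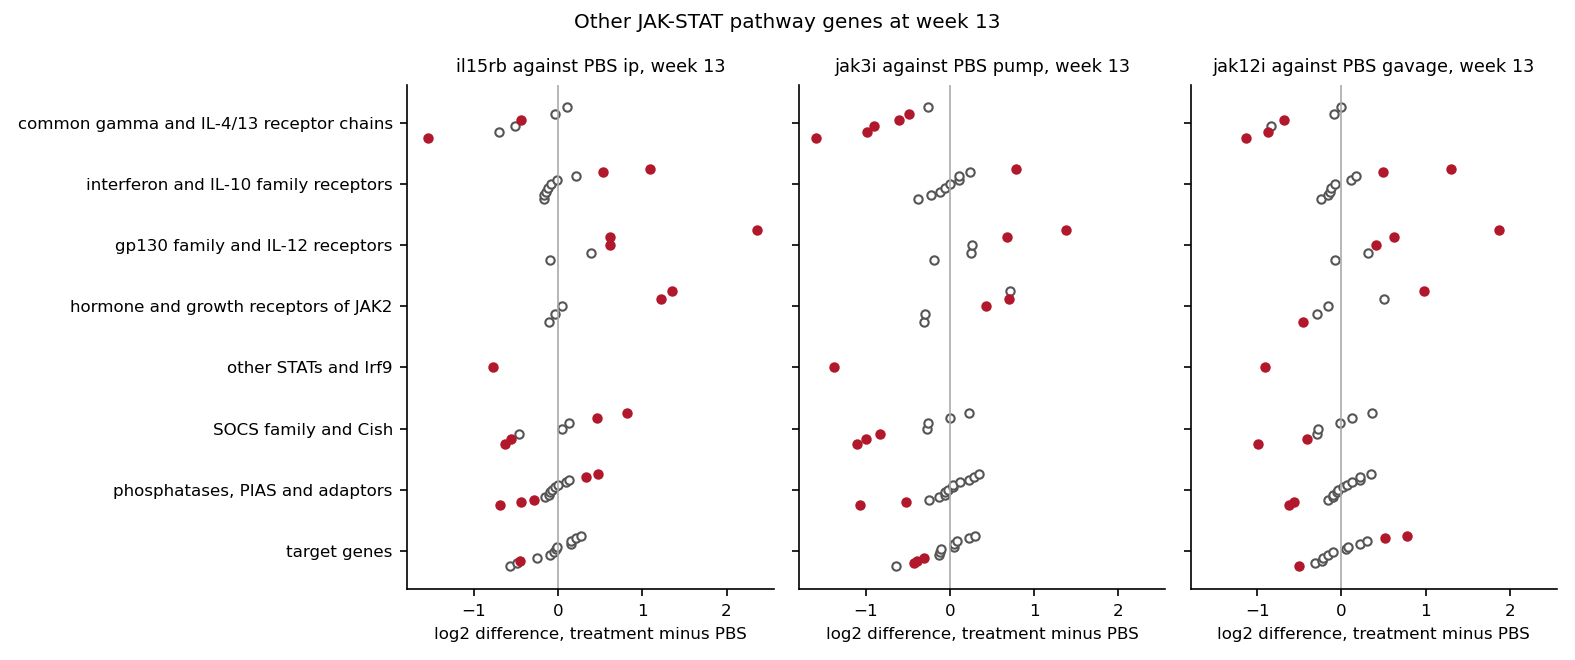
Log2 difference between treated and PBS skin at week 13 (horizontal axis) for the 58 tested pathway genes, in rows by list, with 1 panel per treatment. Red points are called by limma and open points are not. Il2rb, Irf9 and Socs1 lie to the left in all 3 panels, with Il2rb at -1.59 under jak3i, and Il31ra and Il6st to the right, with Il31ra at 2.36 under il15rb.

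Over the 47 arrays, with the mean of each week removed, the genes most like Stat2 were Tap2 (r = 0.93), Cxcl11 (r = 0.93) and Parp9 (r = 0.92). Those most like Jak2 were Zup1 (r = 0.87), Vasp (r = 0.85) and Zc3hav1 (r = 0.84), and those most like Stat6 were Prr14 (r = 0.90), Rela (r = 0.89) and Mindy2 (r = 0.89). Stat5b was nearest to Gid4 (r = 0.83), Ate1 (r = 0.83) and Ctdsp1 (r = 0.82). Stat3 was nearest to Tpm3 (r = 0.79), Prkcd (r = 0.76) and H2-DMa (r = 0.75), Tyk2 to Trpv2 (r = 0.77), Lrmp (r = 0.75) and Inpp5d (r = 0.73), and Jak1 to Kmt2c (r = 0.78), Kmt2a (r = 0.77) and Bclaf1 (r = 0.75). Among the members themselves the highest values were 0.78 for Jak2 with Stat6, 0.65 for Stat2 with Stat3 and 0.63 for Jak2 with Stat3, and the lowest was -0.43 for Stat2 with Stat5b. The arrays share groups, scaling and tissue makeup, so these values are descriptions.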

How the data were processed

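Skin RNA was labelled with biotin and hybridised to Affymetrix mouse arrays, per the labels' protocols. The authors deposited log2 signals of 45101 probe sets, which the submitters' processing notes say came from RMA, with no version. Probe sets naming 1 symbol numbered 34958, several 932 and none 9211, and 34754 symbols were updated by Entrez identifier. Each of 18194 genes was read from its probe set of highest mean, and 2 Jak3 probe sets that name another gene were not used. Limma 3.58.1 in R 4.3.3 was fitted as deposited, with Benjamini-Hochberg adjustment. The design text calls the arrays of a group biological replicates.

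Named pathway genes are the up to 3 of smallest p among those called per list and comparison, and genes most alike the 3 of highest correlation. Members, lists and tests were chosen with earlier results of these data known. Alternatives were scaling, filter, samples fitted, replicate block, probe set, vehicle and arrays left out. Same-numbered arrays gave no pairing (r from -0.49 to 0.29 over 31 pairs). In simulated data over 6 comparisons 57.0% to 79.0% of 1.5-fold and 86.0% to 94.0% of 2-fold changes were found. Of the calls, 3.38% to 6.98% were false. The simulated noise was normal and independent between genes, without shared shifts of arrays or tissue. The false-call range therefore need not hold for the real comparisons, and smaller changes were not simulated. The number of arrays limits the precision.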

Additional observations from a re-analysis of the deposited data

Results flagged for a closer look

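Arrays far from the rest of their group were found in 5 of 45 gene and group sets, where chance gives about 1 in 20. The sets came from the groups of 4 or 5 arrays, all of week 5 or 6. Groups of 3 arrays, among them every group of week 13, were not searched. Jak2 was 9.44 in jak3i replicate 2 of week 6, the other arrays being at 9.15 to 9.17. Jak3 was 5.51 in PBS ip replicate 3 of week 5 (others 5.30 to 5.34), and Tyk2 was 8.37 in PBS ip replicate 2 of that week (others 8.62 to 8.65). Stat5a was 8.11 in jak12i replicate 5 of week 6 (others 7.05 to 7.32). Stat6 was 10.13 in PBS gavage replicate 3 of week 6 (others 9.80 to 9.82).

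Treatment effects that differed between weeks were those of jak3i on Stat2 (-1.81, limma adjusted p = 0.000329) and of jak12i on Stat2 (-1.36, limma adjusted p = 0.00202), Jak1 (0.51, limma adjusted p = 0.0136), Stat6 (0.36, limma adjusted p = 0.0267) and Tyk2 (0.39, limma adjusted p = 0.0473). The il15rb effect on Stat5b differed by 0.56 (limma adjusted p = 0.049). Each value is the later week's effect minus the earlier one's.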

How the results depend on the processing

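The fit was repeated under other settings, and the number of members called moved by over 1.5 times in these cases; except where the setting's own make-up shows it (fewer arrays fitted), the cause was not tested. The share of all genes called under each setting is not given, so these counts do not set the members apart from other genes. For jak3i at week 6 no member was called, but 1 with second probe sets, 6 against PBS gavage and 5 against PBS of all routes. For jak12i at week 6, 5 became 1 with second probe sets, 1 against PBS pump and 3 without the arrays high in hair shaft. At week 13 the 2 of il15rb became 1 with only the groups compared, 1 with second probe sets and 4 against PBS of the other routes. The 3 of jak3i became 1 with only the groups compared, and the 1 of jak12i became 3 with second probe sets, 4 against PBS pump and 4 against PBS of all routes. For il15rb week 13 minus week 5, 1 became 0 after quantile normalization, 0 after median centring, 0 without the filter, 0 with the replicate block, 0 without arrays low in muscle, 2 with only the groups compared and 2 with the disputed array placed as its title says. For jak12i week 13 minus week 6, 4 became 2 after quantile normalization, 2 with only the groups compared, 1 with second probe sets and 1 without arrays high in hair shaft.

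Leaving out single arrays gave 0 to 2 members for jak3i and 5 to 6 for jak12i at week 6. At week 13 it gave 2 to 3 for il15rb, 3 to 4 for jak3i and 1 to 2 for jak12i. It gave 0 to 3 for il15rb week 13 minus week 5 and 2 to 5 for jak12i week 13 minus week 6. The number of all genes called moved too, from 165 to 895 for jak3i and 773 to 1414 for jak12i at week 6. At week 13 it ran from 1811 to 4374 for il15rb, 1398 to 1999 for jak3i and 1448 to 2845 for jak12i. For il15rb week 13 minus week 5 it ran from 624 to 2621, and for jak12i week 13 minus week 6 from 1091 to 2425. Replicate numbers did not pair the arrays, since 3 of 31 correlated best with their own number; the replicate block also brought Stat5a past the threshold for il15rb at week 13 (limma adjusted p = 0.0457).

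Among called values, signs turned with second probe sets for Sh2b3 under jak3i (0.15) and Ifngr2 under jak12i (0.12) at week 6, for Stat5b (-0.15), Sh2b3 (-0.0309) and Pias2 (-0.25) under il15rb and Mcl1 under jak3i (0.0909) at week 13, for Stat5b (-0.57) and Stat6 (-0.10) between PBS gavage and PBS pump at week 6, and for Stat5b in il15rb week 13 minus week 5 (-0.30). The Stat6 value was the same (-0.10) when every probe set was tested on its own, a setting chosen after seeing the data. Against PBS pump, the called values of Jak2 (0.0135), Stat6 (0.20) and Pias1 (0.18) turned sign under jak12i at week 6. Over all 1160 values of the members with 1 array left out, 1114 kept their side of the threshold, 31 lost a call and 15 gained one, and no call turned sign. Members that were not called could change sign, as Jak1 did under jak3i at week 13 (-0.0881 to 0.1599). Signal near the table median limits Stat2 at weeks 5 and 6, and signal below it limits Jak3 throughout.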
